A study of Drosophila melanogaster with 36 samples.

Results

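The genes described here make the yolk and the innermost shell of the Drosophila melanogaster egg. They are the yolk protein genes Yp1, Yp2 and Yp3, the oocyte's yolk receptor yl (yolkless), the vitelline membrane genes Vm26Aa, Vm26Ab, Vm32E, Vm34Ca and Vml, and the eggshell gene Femcoat. They were taken by name, through their gene identifiers, and all 10 were found among the 12698 genes measured.

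Yolk proteins are made in the adult female, by the fat body and by the follicle cells of the ovary, and reach the oocyte by receptor-mediated endocytosis through Yolkless, a member of the low-density lipoprotein (LDL) receptor family. The vitelline membrane is secreted by follicle cells around the growing oocyte, before the chorion is laid down outside it, and its proteins are then crosslinked. In males the yolk protein genes of the fat body are known to be repressed by the male product of doublesex, a regulator of sexual differentiation.

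Start-site signal was measured with RAMPAGE, which sequences 5′ ends of capped RNA, in 36 libraries of pooled whole animals of the y; cn bw sp strain. The libraries cover 24 hourly windows of dechorionated embryos, the larval stages L1, L2 and L3 (the last with dark, light or clear guts), pupae aged 1 to 5 days from the white prepupa (WPP), and adult males and adult females 5 days after eclosion. Each stage is 1 library, so no stage has a replicate. Embryos, larvae with pupae, and adults were barcoded in 3 separate multiplexed libraries, and adult RNA was extracted and sequenced differently, so levels set side by side across these 3 sets were not tested. Values are in RPM, reads per 1000000 reads in genic start-site peaks. Because each molecule is read at its 5′ end, levels of different genes are compared here without a length term. In whole animals, fewer cells of a type and less RNA per cell cannot be told apart.

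Whole reads could be recovered from the RPM in 35 of the 36 libraries, all but the 16 to 17 h embryos. An embryo library held 698702 to 11856035 reads, a larval library 873086 to 14259966 and a pupal one 1066282 to 16690598. There were 8790853 in the adult male and 11281352 in the adult female. The intervals below are exact Poisson or binomial 95% intervals on these reads, and they cover counting error only. In the pupal libraries every gene of the minus strand is listed at 0, so the 5 members on that strand (Yp2, Vm26Aa, Vm32E, Vm34Ca and Femcoat) were not measured in pupae. The sex labels of the adults fit their markers: 13 of 13 seminal fluid genes and 12 of 12 testis genes at 10 RPM or more were higher in the male library, with summed seminal fluid signal of 18411 RPM in the male and 0.975 RPM in the female.

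Taken over the life cycle, the 10 genes had their highest value in the adult female library, and this also held per 1000000 reads of each gene's own strand. Per 1000000 reads of its strand, which puts pupae on the same footing as the other stages, the adult male came second for 7 of them. For Yp3 it was L3 with dark guts, for Femcoat the 10 to 11 h embryo, and for yl the 0 to 1 h embryo. On that scale the female library held between 97.5% and 99.8% of the signal summed over all libraries for 9 of the 10 genes. The exception was yl, with 41.0%, and early embryos held most of its remaining signal.

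**Figure D1:**
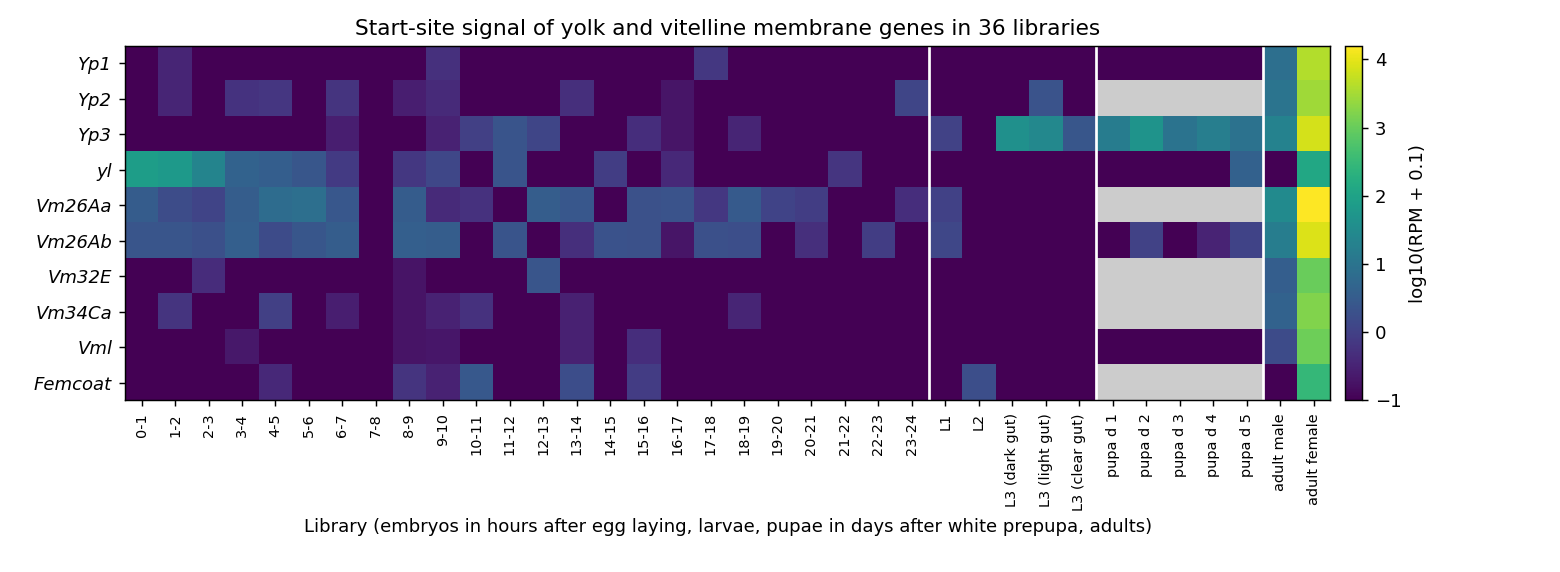
Start-site signal of the 10 genes (rows) in 36 libraries (columns), coloured by log10(RPM + 0.1); embryo columns give hours after egg laying, white lines separate embryos, larvae, pupae and adults, and grey marks minus-strand genes in pupae, which were not measured. The adult female column is the brightest in each row, and yl alone is bright in the youngest embryos.

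Which of these genes differ between the sexes, and by how much, is the comparison of the adult female with the adult male library. The yolk protein genes were among the most abundant start sites of the female. Yp3 stood at 7480 RPM in the female, the 6th highest of all genes, and at 19.8 RPM in the male, a 378-fold difference (95% interval 326 to 441). Yp1 stood at 3935 RPM in the female and 7.74 RPM in the male, 509-fold (401 to 655). Yp2 stood at 2903 RPM in the female and 10.0 RPM in the male, 290.0-fold (235 to 362). The yolk protein genes thus had the order Yp3, Yp1, Yp2 in the female, with Yp3 at 1.90 times Yp1 (1.88 to 1.92) and Yp1 at 1.36 times Yp2 (1.34 to 1.38). In the male the order differed, since Yp2 stood above Yp1, but the intervals of these 2 values overlapped (8.03 to 12.3 RPM against 6.01 to 9.81 RPM). Together the 3 genes took 1.43% of the female library, 14318 RPM, against 37.5 RPM in the male. How reads that match more than 1 yolk protein gene were counted is not stated in the sources used here, so the split among these related genes carries that uncertainty.

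The yolk receptor gene yl was far lower than its ligands in the female, at 131 RPM (124 to 138), which ranked 1540th. No read of yl was found in the male library, so with a floor of 3 male reads it was at least 383-fold higher in the female. Its signal in the female was the lowest of the 10 genes.

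The vitelline membrane genes covered a wide range in the female, and Vm26Aa was the highest of all 10 genes. Vm26Aa, which encodes one of the major vitelline membrane proteins, stood at 15287 RPM in the female, the second highest value of that library, and at 30.6 RPM in the male, 500-fold lower (443 to 565). Vm26Ab, another major vitelline membrane protein gene, stood at 8513 RPM against 16.0 RPM, 531-fold (450 to 631). These 2 genes of the 26A cluster stood apart from the other vitelline membrane genes among the 10. In the same library Vm26Aa was 9.39 times Vm34Ca (9.24 to 9.53), 13.5 times Vml (13.2 to 13.7) and 14.8 times Vm32E (14.5 to 15.0). Not every gene of that cluster was high, since Vm26Ac, which is outside the 10, stood at 47.8 RPM in the female. Vm34Ca stood at 1629 RPM in the female and 4.21 RPM in the male, 387-fold (281 to 550). Vml, whose product lies in the vitelline membrane and is known for a part in embryonic dorsal-ventral patterning, stood at 1133 RPM against 1.48 RPM, 766-fold (448 to 1440). Vm32E stood at 1035 RPM against 3.41 RPM, 303-fold (212 to 450). Vml and Vm32E were the closest neighbours in the order of levels, with Vml at 1.09 times Vm32E (1.07 to 1.12), which exceeds counting error in this single library. Femcoat, an eggshell protein gene, stood at 292 RPM (282 to 302) in the female with no read in the male, at least 855-fold higher. The 5 vitelline membrane genes together took 2.76% of the female library, 27598 RPM against 55.7 RPM in the male.

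All 10 genes together made up 4.23% of the female library, 42339 RPM, against 93.3 RPM in the male, a 454-fold difference (424 to 487). All 10 were at least 100-fold higher in the female, where the share of all genes past that fold was 0.882% (79 of the 8959 genes at 10 RPM or more in an adult library), with 4.54% past 10-fold and 30.1% past 2-fold. At least 2-fold higher in the male were 32.5% of these genes and none of the 10. Their median fold was 443, beside 1.07 over all these genes. With 1 library of each sex there is no replicate check of these folds. Median-of-ratios scaling of the 2 adult libraries multiplies every female to male fold by 0.831, which leaves all 10 genes at least 100-fold higher in the female. Over all genes it gives 24.4% at least 2-fold higher in the female and 36.1% in the male.

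**Figure D2:**
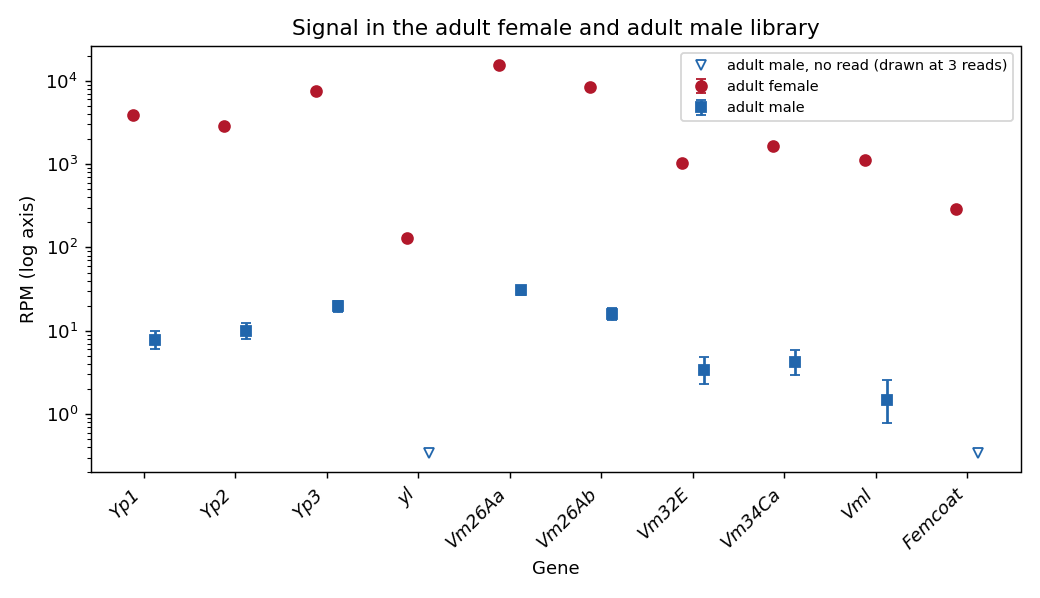
RPM (log axis) of each gene in the adult female (circles) and adult male (squares) library, with exact Poisson 95% intervals of counting error, which are smaller than the symbols in the female; open triangles stand at 3 reads for genes with no male read. The female values run from 131 RPM for yl to 15287 RPM for Vm26Aa, and the male values do not exceed 30.6 RPM.

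The male signal, where there was any, was below 0.5% of the female signal. It was 0.130% (0.0694 to 0.223) of the female value for Vml at the lowest and 0.345% (0.277 to 0.425) for Yp2 at the highest, and these intervals did not overlap. Genes with little female signal had little or none in the male: a share of 0.321% for yl and 0.144% for Femcoat is the upper limit that a count of 0 allows. Chorion protein genes, which follicle cells express after the vitelline membrane genes, had male values of 0% to 1.44% of their female values. The chorion gene Cp15, for example, stood at 8731 RPM against 13.0 RPM and Cp36 at 6366 RPM against 12.6 RPM. Male and female were barcoded in the same multiplexed library, and whether any of the male signal was made in males was not tested.

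Genes of the same tissues and of the yolk pathway were set beside them in the adults. As above, 30.1% of all genes at 10 RPM or more in an adult were at least 2-fold higher in the female. The share at least 100-fold higher was 0.882%, and 32.5% were at least 2-fold higher in the male. Of the chorion protein genes, 9 of 9 were at least 2-fold higher in the female and 8, all but Cp16, at least 100-fold, with a summed signal of 19433 RPM, and Cp38 stood at 2668 RPM against 4.21 RPM. Of the other follicle cell and eggshell genes, 6 of 12 measured reached 10 RPM in an adult, and 4 of these were more than 100-fold higher in the female. They were the eggshell gene dec-1 (listed as dec), at 270 RPM against 0.569 RPM, the vitelline membrane factors fs(1)M3 and closca (clos), at 91.1 RPM against 0.114 RPM and at 44.1 RPM with no male read, and palisade (psd), at 74.5 RPM with no male read. The remaining pair, mirr and tsl, stood higher in the male.

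Genes for uptake of yolk lay closer together in the sexes. Among all genes at 10 RPM or more in an adult, 30.1% were at least 2-fold higher in the female and 32.5% in the male. Median-of-ratios scaling made these shares 24.4% and 36.1%. Of 10 genes of endocytosis and receptor maturation, 1 was at least 2-fold higher in the female, boca (2.28-fold), a chaperone of LDL receptor family proteins. In the male 2 were, the adaptor gene AP-2alpha and the dynamin gene shi, and the median female to male fold was 0.894. After the scaling above none was at least 2-fold higher in the female, since boca no longer was, and 3 were in the male, with Rbsn-5 added. Rab11, of recycling endosomes, stood at 363 RPM in the female and 227 RPM in the male, clathrin heavy chain (Chc) at 119 and 64.0 RPM, and Rab7, of late endosomes, at 114 and 117 RPM. The other LDL receptor family genes had a median fold of 1.14 over 5 genes. The lipophorin receptor LpR1 was 2.98-fold higher in the female, at 110 RPM against 37.1 RPM, while LpR2 stood at 52.9 against 46.3 RPM and megalin (mgl) at 276 against 369.8 RPM. In the male 1 was at least 2-fold higher, Lrp4, at 10.5 RPM against 1.24 RPM.

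The counts that follow stand beside 30.1% of all genes at 10 RPM or more in an adult that were at least 2-fold higher in the female. In the male it was 32.5%, and after median-of-ratios scaling the shares were 24.4% and 36.1%. At that level were 14 regulators of yolk protein genes. Of these, 6 were at least 2-fold higher in the female and 1 in the male. After that scaling the counts were 5 and 2, with tra dropped and gce added. Before it, the one higher in the male was doublesex (dsx), at 34.1 RPM in the female and 138 RPM in the male. Start-site signal does not separate the male and female splice forms of dsx. The nuclear receptor gene usp stood at 649 RPM in the female and 194 RPM in the male, ftz-f1 at 223 and 82.0 RPM, and the juvenile hormone receptor gene Met at 138 and 132 RPM. Of 8 genes listed for the fat body, the other tissue that makes yolk proteins, 1 was at least 2-fold higher in the female. In the male 4 were (Lsp2, Lsp1beta, to and Lsd-1), and the median fold was 0.528. Lsp2 and Lsp1beta stood at 75.8 and 47.1 RPM in the adult male but reached 15210 and 21039 RPM in larvae. These counts therefore do not describe genes of the adult fat body alone. The scaling adds Apoltp to those higher in the male. The one higher in the female was fit (female-specific independent of transformer), at 607 RPM against 16.7 RPM. The lipophorin gene apolpp stood at 936 RPM in the female and 1422 RPM in the male, and the lipid droplet gene Lsd-1 at 58.2 and 207 RPM. Of 5 genes listed for the female reproductive tract and spermatheca, 1 was at least 2-fold higher in the female, the spermathecal gene Send1 (77.1 RPM with no male read), and 3 in the male. These 3 were Octbeta2R, Est-6, at 42.9 RPM in the female and 702 RPM in the male, and Spn28F, at 746 RPM in the male with no female read. With Est-6 and Spn28F mostly in the male, this list is not a set of female markers. Its counts therefore do not describe the female tract. Female germ line genes were at least 2-fold higher in the female in 7 of 8, with dhd at 1806 RPM against 9.21 RPM, osk at 869 RPM against 2.84 RPM and bru1 at 704 RPM against 31.4 RPM.

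In embryos the question was whether RNA of these genes was present in the newly laid egg, and whether it came back later. The yolk receptor gene yl differed from the other 9. It started at 79.9 RPM at 0 to 1 h (731 reads), stood at 65.8 RPM at 1 to 2 h and at 22.2 RPM at 2 to 3 h, and was 4.31 RPM at 3 to 4 h. In the following hours it stood at 3.47, 2.37 (3 reads) and 0.671 RPM. The 7 to 8 h library, the shallowest of all, held no read of yl, which allows up to 5.28 RPM. From 8 h on yl ranged between 0 and 2.13 RPM, the highest of these values resting on 2 reads. The listed values of 0 to 4 h were thus all higher than those of 4 to 8 h, at 43.1 ± 35.6 RPM against 1.63 ± 1.58 RPM. These are means and SD of 4 hourly libraries each, which are neighbouring hours and not replicates. Counting intervals at 3 to 4 h and 4 to 5 h overlapped (3.04 to 5.95 RPM against 1.79 to 6.06 RPM).

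The fall of yl passed the test. In limma on log2(RPM + 1), fitted over all 24 embryo libraries and 9940 genes, its log2 change was -3.67 ± 0.60 (SE) with a Benjamini-Hochberg adjusted p of 0.000184. In this comparison 8.53% of all genes were called lower and 17.8% were called in either direction, with 9.3% called higher. A gene was called when its adjusted p lay under 0.05 and its values differed by 2-fold or more. The call rests on the spread taken from the whole embryo series, since with only the 8 compared libraries in the fit the adjusted p from limma was 0.0732, the upper end of a range from 0.000179 over 7 alternative settings, and with 1 library left out it did not exceed 0.00144. A smooth course over the 24 hours had an adjusted p of 1.2e-11 (limma F test of a spline), in a test that 89.8% of genes passed. From 4 to 8 h to 20 to 24 h the log2 change of yl was -1.01 with an adjusted p of 0.147.

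Only 3 of the 10 genes, yl, Vm26Aa and Vm26Ab, passed the filter of at least 2 RPM in at least 3 embryo libraries, yl through its early hours and the other 2 through scattered values just above 2 RPM or higher. Vm26Aa had 195 reads over the 23 embryo libraries with recovered reads and Vm26Ab had 194, beside 1137 of yl. Vm26Aa stood at 2.28 ± 1.17 RPM at 0 to 4 h and at 4.34 ± 3.72 RPM at 4 to 8 h, a log2 change of 0.35 ± 0.58 (SE) with an adjusted p of 0.814. Its highest embryo values were 6.94 RPM at 4 to 5 h and 7.89 RPM at 5 to 6 h, while the 7 to 8 h library, the shallowest of all, held no read. At 20 to 24 h it stood at 0.291 ± 0.378 RPM, which overlaps the 4 to 8 h values only through that empty library.

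This later fall of Vm26Aa was called, with a log2 change of -1.66 ± 0.58 (SE) and an adjusted p of 0.0153 in limma. In that comparison 28.7% of genes were called lower, 29% higher and 57.7% in either direction. All genes had a median log2 change of -0.23. The split was 2884 higher against 2852 lower, and 3579 against 1601 after median-of-ratios scaling, under which the median of all genes was 0.37 and Vm26Aa kept its call at -1.37. The call was lost without the 4 to 5 h library (log2 change -1.33, adjusted p 0.0652) and without the 5 to 6 h library (-1.28, adjusted p 0.0726), in a range from 0.000527 over the 8 libraries left out. A course over the hours had an adjusted p of 0.0274 in limma, and 5 of the 24 fits that each left out 1 library gave a value above 0.05. These were the fits without 3 to 4 h (0.0535), 4 to 5 h (0.0962), 5 to 6 h (0.0864), 21 to 22 h (0.05003) and 22 to 23 h (0.0584), and the lowest of the 24 was 0.0104.

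Vm26Ab was low in all embryo libraries. Over pooled reads it stood at 3.12 RPM (2.46 to 3.90) at 8 to 12 h, where by library it was at 2.27 ± 1.65 RPM. Most of those reads came from the 8 to 9 h and 9 to 10 h libraries (43 and 31 reads), with none at 10 to 11 h. At 20 to 24 h pooled reads gave 0.240 RPM (0.0290 to 0.866). The difference between these periods was not tested. By library Vm26Ab stood at 2.48 ± 0.79 RPM at 0 to 4 h, 1.79 ± 1.43 RPM at 4 to 8 h and 0.295 ± 0.375 RPM at 20 to 24 h. Its log2 changes were -0.48 (adjusted p 0.634 in limma) and -0.96 (0.104), and its course had an adjusted p of 0.0979. Without the 7 to 8 h library the later change (adjusted p 0.0215) and the course (0.0293) came under 0.05 in limma, and the other left-out libraries gave up to 0.286 and 0.197. Its 24 values lay between 0 and 3.63 RPM, the highest at 8 to 9 h.

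**Figure D3:**
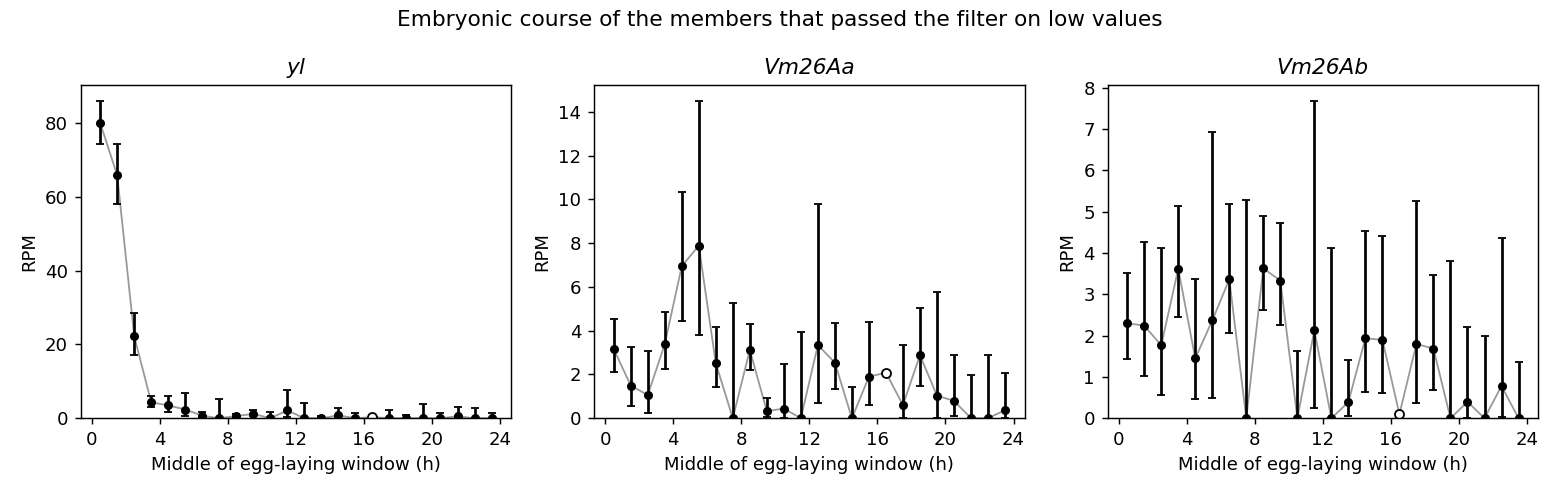
RPM of yl, Vm26Aa and Vm26Ab in the 24 hourly embryo libraries, by the middle of the egg-laying window in hours, with exact Poisson 95% intervals of counting error; the open point is the 16 to 17 h library, which has no recovered reads and no interval. Signal of yl runs from 79.9 RPM at 0 to 1 h to 0.671 RPM at 6 to 7 h, and the shallow 7 to 8 h library held no read. The vertical axes of Vm26Aa and Vm26Ab end below 16 RPM.

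The other 7 genes were close to 0 throughout embryogenesis, and none was tested. Over 86702102 reads of 23 embryo libraries, Yp1 had 6 reads, Yp2 20, Yp3 10, Vm32E 4, Vm34Ca 12, Vml 5 and Femcoat 25. Their highest embryo values were at most 2.66 RPM, reached by Femcoat at 10 to 11 h with 6 reads. In the 0 to 1 h library these 7 genes were listed at 0, as were all 9 chorion protein genes, whereas Vm26Aa stood at 3.17 RPM (29 reads) and Vm26Ab at 2.30 RPM (21 reads).

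Other genes that resembled yl in the egg came from different lists. All 9 female germ line genes were called lower at 4 to 8 h, with a median log2 change of -4.51, where 8.53% of all genes were called lower. In the LDL receptor family 3 of 5 genes were called: LpR1 fell from 82.2 ± 51.9 to 4.51 ± 2.04 RPM (log2 change -3.61) and LpR2 from 33.1 ± 16.5 to 3.96 ± 3.29 RPM (-2.77), while mgl rose from 37.5 ± 32.8 to 219 ± 144 RPM (2.71). Both lipophorin receptors rose again at 20 to 24 h, LpR1 to 54.2 ± 28.0 RPM and LpR2 to 29.9 ± 3.54 RPM, as did Lrp4 to 13.0 ± 5.31 RPM from 0, whereas yl, arr and mgl were not called higher there. The difference between yl and its relatives in that later change was not tested. None of the 10 endocytosis genes was called between 0 to 4 h and 4 to 8 h (median log2 change -0.29), and at 20 to 24 h boca and Chc were called lower and shi higher. Of all genes 17.8% were called in the first of these comparisons and 57.7% in the second.

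The other follicle cell and eggshell genes did not follow one course. At 0 to 1 h fs(1)M3 stood at 53.3 RPM, clos at 18.9 RPM and fs(1)N at 6.23 RPM, and psd and dec-1 at 0. None of these named genes passed the filter on low values, so none was tested. Of the 12 genes of this list that were measured, 6 were tested. At 4 to 8 h 4 of the 6 were called higher, the follicle and embryonic patterning genes mirr, tup and pip and the cadherin Cad99C. None of the 6 was called lower, which does not cover the untested eggshell genes. At 20 to 24 h mirr and pip were called lower again. Over all genes 17.8% were called at 4 to 8 h (9.3% higher and 8.53% lower). At 20 to 24 h it was 57.7% (29% higher and 28.7% lower). Among 18 regulators tested at 4 to 8 h, slp2 and srp were called higher and ftz-f1 and usp lower. At 20 to 24 h 10 of the 18 were called, 4 higher and 6 lower, which is close to the share of all genes. Of 5 fat body genes tested, apolpp and Apoltp were called higher and bmm lower at 4 to 8 h, and Lsd-1 and bmm higher at 20 to 24 h. The single testis gene tested, bol, was called higher in both comparisons, and of 4 genes from the reproductive tract list none was called in the first and 4 were called higher in the second (Est-6, Hnf4, Oamb and Octbeta2R).

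Larvae and pupae shared 1 multiplexed library, which allowed a comparison of the plus-strand genes. Among the yolk and vitelline membrane genes, Yp3 was the one with signal in most of these libraries. In reads per 1000000 plus-strand reads, Yp3 stood at 2.03 in L1, 0 in L2, 80.2 in L3 with dark guts, 59.8 with light guts and 4.53 with clear guts. In pupae it stood at 15.0, 46.2, 9.53, 16.7 and 9.17 on days 1 to 5. The 2 earlier L3 stages were thus higher than any pupa, and the other 3 larval stages lower than any pupa. Larval and pupal libraries were at 29.3 ± 37.9 and 19.3 ± 15.4 (SD, 5 stages each), and the mean log2 change from larvae to pupae of 0.82 ± 1.24 (SE) had an adjusted p of 0.744 in limma. This log2 change is positive although the mean level was lower in pupae, since 3 larval values were 4.53 or lower. Only this member could be tested, in a comparison where 3% of 5404 plus-strand genes were called (1.48% higher and 1.52% lower) and all genes had a median log2 change of 0.62. In edgeR's quasi-likelihood test on recovered reads the log2 change of Yp3 had the other sign, at -1.02 (adjusted p 0.775).

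**Figure D4:**
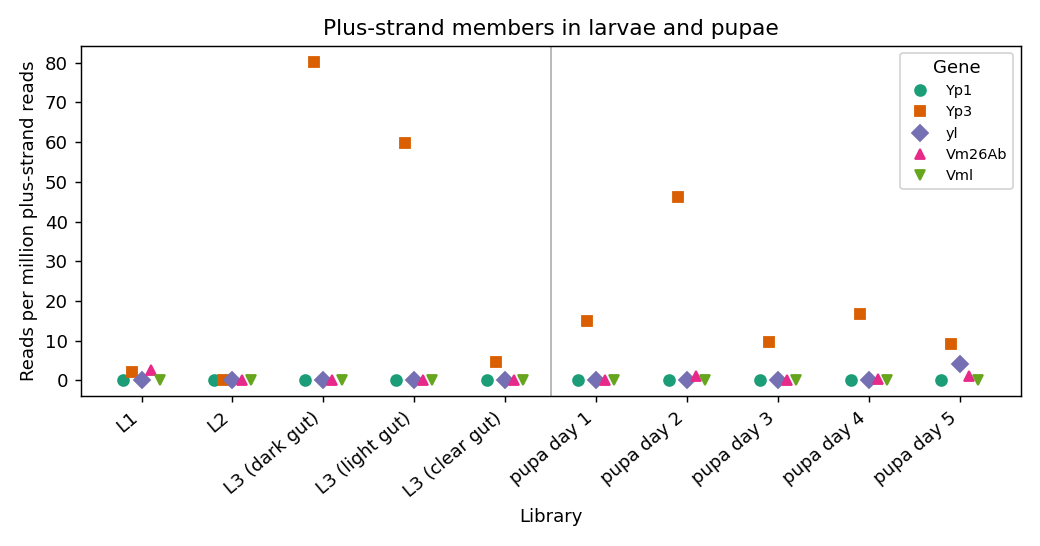
Reads per 1000000 plus-strand reads of the 5 plus-strand members in 5 larval and 5 pupal libraries, 1 point per library; the line separates larvae from pupae. Yp3 reaches 80.2 and 59.8 in the L3 stages with dark and light guts and 46.2 on pupal day 2, and the other 4 genes stay at or near 0.

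Of the other 9 genes, 5 left reads in some larval or pupal library, at low levels. In RPM, yl was at 0 in all 5 larval libraries, with 0 of 36616473 reads, and was seen in the day 5 pupa alone, at 4.01 RPM (67 reads), the last stage before eclosion. Vm26Ab had 1.19 RPM in L1 (17 reads) and 0.98, 0.23 and 1.02 RPM on pupal days 2, 4 and 5. RPM in pupae counts plus-strand reads alone, so these larval and pupal values are on unlike scales. On the plus-strand scale used for Yp3, Vm26Ab stood at 2.47 in L1 and 0.98, 0.23 and 1.02 on those days. Yp1 and Vml had no read in any larval or pupal library. Among minus-strand genes, larval reads were found for Yp2 in L3 with light guts (2.07 RPM, 17 reads), Vm26Aa in L1 (0.91 RPM, 13 reads) and Femcoat in L2 (1.69 RPM, 13 reads), and for Vm32E and Vm34Ca in none. Of the comparison lists, pupae against larvae gave 1 call among 3 female germ line genes (bru1, higher) and 2 among 4 testis genes (Mst84Da and dj, higher). There was no call among the genes tested of the other lists, and 3% of all tested genes were called.

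How closely the genes' profiles matched was described over the 31 libraries that are not pupal, as the Pearson correlation of log2(RPM + 1). These correlations rest largely on the shared high value in the adult female. The 36 pairs without yl had a median r of 0.925, and 0.543 once the adult female was left out, whereas the 9 pairs with yl had 0.502 and -0.0891. For most of the genes the adult male was then the highest library. Among the pairs without yl, those with Femcoat then ranged from -0.19 to 0.0849. Yp3 then had 0.0236 with Vm26Aa and 0.015 with Vm26Ab, and its other pairs without yl and Femcoat ranged from 0.3475 to 0.533. Femcoat had no male read, whereas Yp3 stood at 19.8 RPM in the male. What sets these correlations was not tested. The genes most like Yp1 were Cp36 (r = 0.997), Cp38 (0.993), Vm34Ca (0.992), Cp16 (0.991) and yellow-g (0.991), of which all but Vm34Ca lie outside the 10 genes. For Vm26Aa they were Vm34Ca (0.937), Vm26Ab (0.932), Cp36 (0.931), Cp38 (0.929) and Vm32E (0.927). Those most like yl were of another kind, namely alphaTub67C (0.959), the maternal alpha-tubulin gene, APC7 (0.947), which encodes a subunit of the anaphase-promoting complex, and 3 genes known by CG numbers. In the 0 to 1 h embryo alphaTub67C stood at 222 RPM and in the adult female at 150.2 RPM.

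The positions of the start sites are given on dm3, from the authors' deposited list of genic peaks; the sources used here do not say what its peak scores measure. Of the 10 genes, 7 had a single peak, as did 59.8% of all genes. On chromosome X these were Yp3 at X:13653558-13653610 (plus strand), yl at X:14087200-14087304 (plus), Vml at X:2169844-2170003 (plus) and Femcoat at X:4136846-4136863 (minus). On chromosome arm 2L they were Vm26Ab at 2L:5956959-5957165 (plus), Vm32E at 2L:11171641-11171685 (minus) and Vm34Ca at 2L:13411618-13411634 (minus). Vm26Aa had its main peak at 2L:5960287-5960353 (minus), with 98.9% of its score, so it is transcribed toward Vm26Ab. The main peaks ran in width from 17 bases for Vm34Ca to 207 bases for Vm26Ab.

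Yp1 and Yp2 are neighbours that are transcribed away from each other. The main peak of Yp1, at X:9947844-9947934 on the plus strand, held 57.1% of the gene's score, and that of Yp2, at X:9946653-9946676 on the minus strand, held 83.7%, with 1168 bases between the end of one and the start of the other. Yp1 had 3 further peaks and Yp2 had 2. The widest, of 570 bases, began 883 bases downstream of the start of the main Yp1 peak and held 39.7% of the Yp1 score. Away from the main peaks, the outermost peaks of Yp1 each overlapped a Yp2 peak on the opposite strand. Which of these peaks entered each gene's RPM is not stated in the sources used here.

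**Figure D5:**
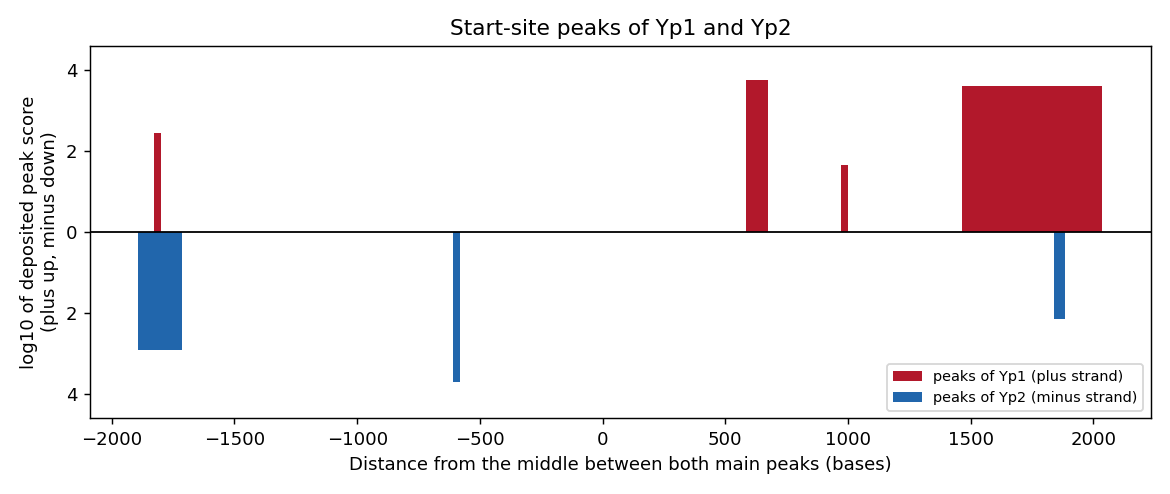
Deposited start-site peaks of Yp1 (plus strand, upward) and Yp2 (minus strand, downward) by distance in bases from the middle between both main peaks; bar width is the peak width and height is the log10 of the deposited score. The main peaks are 1168 bases apart, and a Yp1 peak and a Yp2 peak overlap on opposite strands at either end.

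Within 10 kb of a main peak lay 25 other measured genes, of which 19 reached 10 RPM in an adult library. Of these 19, 9 were at least 2-fold and 3 at least 100-fold higher in the female, with a median fold of 1.29. Over all genes at that level 30.1% were at least 2-fold and 0.882% at least 100-fold higher, with a median fold of 1.07. The 3 were Vm26Ac, a further vitelline membrane gene of the 26A cluster, psd in the same cluster, and Muc4B, a mucin gene beside Femcoat. Vm26Ac stood at 47.8 RPM in the female with no male read, at least 140.0-fold higher, and had no signal in any other library where it was measured. Muc4B stood at 53.3 RPM with no male read, at least 156-fold higher.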

How the data were processed

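RAMPAGE start-site signal was analysed in 36 libraries of whole animals, 1 per stage. The authors deposited RPM (reads per 1000000 reads) for 12698 genes, each column summing to 1000000, and a peak list with a score per peak. The submitters' processing notes name dm3, STAR and Cufflinks, with no role or version; counting and duplicate handling are not given in the sources used here. Identifiers were matched to symbols for 12089 genes. Whole reads were recovered where 100% of values were multiples of 1 read within 0.01; for the 16 to 17 h library this could not be settled, and it has no reads here.

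Embryo libraries formed 6 groups of 4 consecutive hours, which are not replicates. The p-values set a change against the spread of libraries within groups, or around the smooth course in the spline test. Within groups that spread includes change from hour to hour or stage to stage. Values were log2(RPM + 1), and fold changes on this scale understate changes of low genes. Genes with at least 2 RPM in 3 fitted libraries were tested with limma 3.58.1 (R 4.3.3), with 18 residual degrees of freedom in embryos and 8 in larvae and pupae, where values were rescaled per 1000000 plus-strand reads. The fits were tested on simulated data. edgeR 4.0.16 on recovered reads was an alternative, beside other pseudocounts, filters, scalings and left-out libraries. Adults have 1 library each and no test. All fits covered all genes, with Benjamini-Hochberg adjustment. Ratios carry binomial intervals from scipy 1.17.1.

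The members, gene lists, tests and naming rule were chosen with earlier results of these data known. From each list the 3 highest genes in the adult female (for male lists, in the male) and those called in an embryo or pupal test where 5 or fewer were called could be named; genes most like Yp1, Vm26Aa and yl were the 5 with the highest correlation. Outside this rule, tsl, clos, fs(1)N, dsx, AP-2alpha, Lsp2, Lsp1beta, to, Spn28F, Rbsn-5, Vm26Ac and Muc4B were named after their values were seen.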

Additional observations from a re-analysis of the deposited data

Results flagged for a closer look

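In groups of 4 or 5 libraries, 5 of the 20 examined had 1 library that stood apart from the others by Dixon's test, which chance alone does in about 1 in 20 groups of varied values. Yp3 stood at 46.2 RPM in the day 2 pupa (141 reads), while the other 4 pupal libraries lay between 9.17 and 16.7 RPM. Vm26Aa stood at 3.12 RPM at 8 to 9 h (37 reads), with 0 to 0.444 RPM in the other 3 libraries of 8 to 12 h. The other 3 concern yl, where 1 library stood above 0 and the others at 0, so that any single read meets the test and the rate of chance does not apply: 0.775 RPM at 14 to 15 h (2 reads), 0.298 RPM at 16 to 17 h and 0.540 RPM at 21 to 22 h (1 read).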

How the results depend on the processing

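No paired analysis was possible because each stage is 1 library and the numbers in a group are hours or days. Of the results for single genes, 202 kept direction and side of the threshold under the alternatives, 9 lost and 2 gained a call, 5 moved beyond their counting interval and 2 reversed; the causes were not tested. The reversals were Vm26Aa at 4 to 8 h against 0 to 4 h without the 5 to 6 h library (log2 change -0.037, in a range of -0.037 to 1.01 with 1 library left out) and Yp3 in pupae against larvae under edgeR (-1.02). With a pseudocount of 5 RPM the later change of Vm26Aa was below 2-fold (-0.72). Calls at 4 to 8 h against 0 to 4 h came to 1772, to 232 with only the 8 compared libraries fitted, and to between 1163 (without 0 to 1 h) and 2357 with 1 library left out. Pupae against larvae gave 162 calls, 80 with no filter and 0 with edgeR's quasi-likelihood test (779 genes at an unadjusted p below 0.05, against 1162 in limma). With 1 library left out it gave between 34 (without pupa day 3) and 604 (without L3 with clear guts), moving by over 1.5 times for every library except pupa day 5. The summed adult fold was 377 after median-of-ratios scaling; as a ratio of RPM + 1 the folds of yl, Femcoat and Vml were 132, 293 and 458. Depth limits the low embryonic and larval values: 3 reads are 4.29 RPM in the shallowest library, and the single library per stage leaves the adult folds without a replicate check.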
